A study of Mus musculus with 20 samples.

Results

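The kidney filters glucose, fructose and myo-inositol and takes them back along the proximal tubule. Several sodium-coupled carriers of the SLC5 family pull them in across the apical membrane. Facilitative carriers of the SLC2 (GLUT) family such as Slc2a2 let sugars leave on the blood side, whereas Slc2a5 works at the apical membrane. Miox, myo-inositol oxygenase, is made almost only in the proximal tubule, where it opens the inositol ring to give glucuronate, the first step of inositol breakdown. In the medulla inositol serves another purpose, as an osmolyte that cells gather against salt.

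Here 9 genes of this system were followed: the sodium-coupled carriers Slc5a1, Slc5a2, Slc5a3, Slc5a8 and Slc5a10, the facilitative carriers Slc2a1, Slc2a2 and Slc2a5, and Miox. They were found by gene symbol among the 55642 genes of the transcript tables, and each symbol belonged to 1 gene identifier. The list was chosen with the kidney results at the end of dosing already known, in which Slc5a10, Miox and Slc2a5 were higher. Values of the 9 genes in comparisons that use the treated kidneys are therefore a description with no p-value, and nothing is read from how many of them passed the call rule there. Tests are kept for the recovery kidneys, the livers and genes outside the list. The lists of those other genes were also chosen with earlier results of these data known.

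RNA came from kidney and liver of male DBA/2J mice, an inbred strain with no engineered allele named in the labels. Mice were injected intraperitoneally each day for 3 weeks with JQ1 at 50 mg/kg, a small molecule that displaces BET bromodomain proteins from acetylated chromatin, or with vehicle. The study gave JQ1 for its action on BRDT, the BET protein of the testis, and used both organs to ask how far other tissues responded and whether they returned after withdrawal. Each organ had 3 libraries at the end of dosing (treatment, 10 weeks of age), 3 taken 6 weeks after the last dose (recovery, 16 weeks of age) and 4 vehicle controls, of which 3 were taken at 10 weeks and 1 at 16 weeks. The labels do not say whether a kidney and a liver library with the same number came from 1 animal, and each library was counted as 1 animal within its organ. All 4 controls of an organ were pooled, so age and recovery cannot be told apart for most of that comparison. The series' design text also speaks of untreated animals among the controls, whereas every control is labelled as vehicle.

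The libraries held 13952510 to 26895318 reads in kidney and 11968500 to 17529910 in liver. Proximal tubule markers (Lrp2, Cubn, Slc34a1, Slc4a4, Slc22a6 and Slc13a3) summed to between 5371 and 7105 CPM in every kidney library, and hepatocyte markers to between 22366 and 83049 CPM in every liver library. Liver recovery replicates 1, 2 and 3 had hepatocyte sums of 50890, 22366 and 45227 CPM, and control livers 55612 to 63746 CPM. CPM are reads scaled to a common library size, with TMM factors within an organ, and they compare libraries for 1 gene. TPM, which also divide by transcript length, are used wherever genes or organs are compared with each other. A gene was called where its edgeR quasi-likelihood p, after Benjamini-Hochberg adjustment over all genes tested in the organ, was below 0.05. By that rule 4.13% of 17158 genes were called in treated against control kidneys, 1.40% as higher and 2.73% as lower. The libraries of both groups did not overlap for 15.2% of genes in that comparison.

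In liver, 2 libraries stood apart from their label. Liver recovery replicates 2 and 3 held Kap, an androgen-regulated transcript of the kidney proximal tubule, at 3967 and 2104 TPM. Liver recovery replicate 1 had 20.4 TPM of Kap, and the other 7 liver libraries lay between 0.165 and 3.33 TPM. Fold changes of Slc5a1, Slc5a3 and Slc2a5 in recovery livers are given with and without these 2 libraries. Unless stated otherwise the liver fits include both, also for treated livers.

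In control kidneys the 9 genes spanned a wide range of levels per length. Miox was far above the carriers, at 1356 ± 50.9 TPM (SD, n = 4 controls). Slc5a2 followed at 61.0 ± 2.96 TPM, then Slc5a10 at 48.0 ± 7.15 TPM, Slc2a2 at 41.1 ± 6.10 TPM, Slc5a8 at 19.2 ± 1.21 TPM and Slc5a1 at 11.3 ± 1.33 TPM. Slc5a3 (7.17 ± 1.09 TPM), Slc2a5 (6.87 ± 1.12 TPM) and Slc2a1 (6.10 ± 0.816 TPM) formed the lower end, and their control libraries overlapped, as did those of Slc5a10 and Slc2a2.

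The level of Miox depended on how its reads were divided among transcripts. Salmon gave 51.1% ± 1.1 of the reads in controls to Miox-205, a transcript of 392 bases, and 48.9% ± 1.1 to Miox-201, of 1130 bases. Such a short transcript yields a high TPM from few reads. Counted per kilobase of Miox-201, Miox stood at 388 ± 23.8 CPM per kb in controls, against 72.6 ± 3.80 for Slc5a2 and 55.9 ± 7.78 for Slc5a10, and the order of all 9 genes was the same. Slc2a2 was divided too, with 75.1% ± 1.40 on Slc2a2-201 and 24.9% ± 1.40 on Slc2a2-202. Slc2a2-202, of 1447 bases, is annotated as a nonsense-mediated decay transcript, not a coding one. It gave a mean of 24.5 TPM in control kidneys. The coding Slc2a2-201 gave 16.6 TPM, less than the 19.2 TPM of Slc5a8. The other 7 genes had at least 97.7% of their kidney reads on 1 transcript in each library.

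Sequence before the start of the 3 genes that were higher in every treated kidney is shown here as a description. RefSeq on GRCm38.p6 gave windows upstream of 8 of the 9 genes. Short motifs were searched on both strands of the 250 bases before each start, 5 in all. They were the TATA box written as TATAAA, the CCAAT box as named, an HNF4 site written as CAAAGTCCA, the E-box written as CACGTG and the GC box written as GGGCGG. No matches overlapped in the stretches shown. Capitals mark the motifs, which read as their reverse complements where they lie on the other strand of the gene. Each stretch ends where its window first meets an exon of the gene in GENCODE M21.
Slc5a10, chr11:61719998-61720235, minus strand: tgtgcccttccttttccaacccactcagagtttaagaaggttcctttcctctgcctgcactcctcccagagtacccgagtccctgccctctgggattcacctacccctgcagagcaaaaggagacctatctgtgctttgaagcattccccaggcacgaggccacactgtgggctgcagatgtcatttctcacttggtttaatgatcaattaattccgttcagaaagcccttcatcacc
Miox, chr15:89334223-89334397, plus strand: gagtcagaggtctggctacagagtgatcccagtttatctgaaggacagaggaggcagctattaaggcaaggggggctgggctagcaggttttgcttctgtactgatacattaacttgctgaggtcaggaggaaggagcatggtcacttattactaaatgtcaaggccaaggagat
Slc2a5, chr4:150119094-150119282, plus strand: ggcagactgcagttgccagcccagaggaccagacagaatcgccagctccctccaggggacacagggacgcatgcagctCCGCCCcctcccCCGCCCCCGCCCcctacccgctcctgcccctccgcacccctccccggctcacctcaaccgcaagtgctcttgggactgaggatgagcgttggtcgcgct

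The Slc5a10 window shown lies closest to Slc5a10-204, the transcript with 99.7% of its reads in controls, which began 39 bases downstream of that RefSeq start. A second RefSeq start of Slc5a10 lay farther upstream, 853 bases before the start of Slc5a10-204, and its window is not shown. That window met an M21 exon of Slc5a10, so the stretch shown lies downstream of an earlier exon. The window shown held none of the 5 motifs. The Miox stretch held none either, and a TATA box lay 40 to 35 bases before the RefSeq start in the part that M21 counts as exon. Miox-201 began 75 bases upstream of that RefSeq start, whereas Miox-205, given 51.1% of the reads, began 1960 bases downstream of it, so the stretch shown is not next to the start of Miox-205. TATAAA occurred in 12.4% of all 32851 windows. Slc2a5 held 3 GC boxes on the strand opposite to the gene, a motif present in 32.7% of windows, and an exon of Gm13093 overlaps the stretch shown. These matches describe letters and not binding.

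Slc5a10 (SGLT5, ENSMUSG00000042371.13) takes up mannose and fructose at the apical membrane of the proximal tubule. Its kidney CPM were 99.2, 93.4, 127 and 111 in the 4 controls, 233, 255 and 269 after JQ1, and 101, 117 and 95.04 in recovery. Every treated library lay above every control and every recovery library, and recovery overlapped the controls. The means were 108 ± 15.0 (SD, n = 4), 253 ± 18.2 (n = 3) and 104 ± 11.5 CPM (n = 3), a log2 fold change of 1.23 ± 0.10 (SE) for treatment against control. In bulk tissue, more cells of a type and more RNA per cell cannot be told apart.

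Per length, Slc5a10 changed places with Slc5a2. Slc5a2 had the higher TPM in all 4 control and all 3 recovery kidneys, and Slc5a10 in all 3 treated kidneys, at 102 ± 9.71 against 53.4 ± 9.70 TPM. In M21, 13.6% of the 31-base words of Slc5a10-204 also occur in Fam83g, an overlapping gene on the opposite strand, and the sources used here do not state whether libraries or counting kept the strand. Fam83g itself was at 9.30 ± 0.262 CPM in controls and 10.3 ± 1.19 CPM after JQ1. Likewise 23.99% of the words of Slc5a2-202 occur in Rusf1 on the opposite strand, at 10.3 ± 1.49 and 10.4 ± 1.98 CPM.

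Miox (ENSMUSG00000022613.9) had 425, 477, 417 and 433 CPM in the control kidneys, 858, 918 and 889 after JQ1, and 454, 518 and 475 in recovery. All treated libraries were above all others. Its mean went from 438 ± 26.9 CPM (n = 4) to 888 ± 29.9 CPM (n = 3), a log2 fold change of 1.02 ± 0.07, and stood at 482 ± 32.2 CPM in recovery (n = 3). The share of reads on Miox-205 was 52.8% ± 2.70 after JQ1 and 51.7% ± 3.07 in recovery. This division is Salmon's estimate over largely shared sequence, since 91.7% of the 31-base words of Miox-205 and 90.8% of those of Miox-201 also occur in other Miox transcripts, and the transcripts were not tested apart.

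Slc2a5 (GLUT5, ENSMUSG00000028976.11), is the fructose carrier of the apical membrane. Control kidneys had 26.1, 23.6, 32.8 and 24.7 CPM, treated kidneys 38.7, 50.1 and 55.0 CPM, and recovery kidneys 20.7, 26.7 and 19.8 CPM. The lowest treated library was above the highest control, 38.7 against 32.8 CPM. Its log2 fold change was 0.84 ± 0.14 against control.

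**Figure D1:**
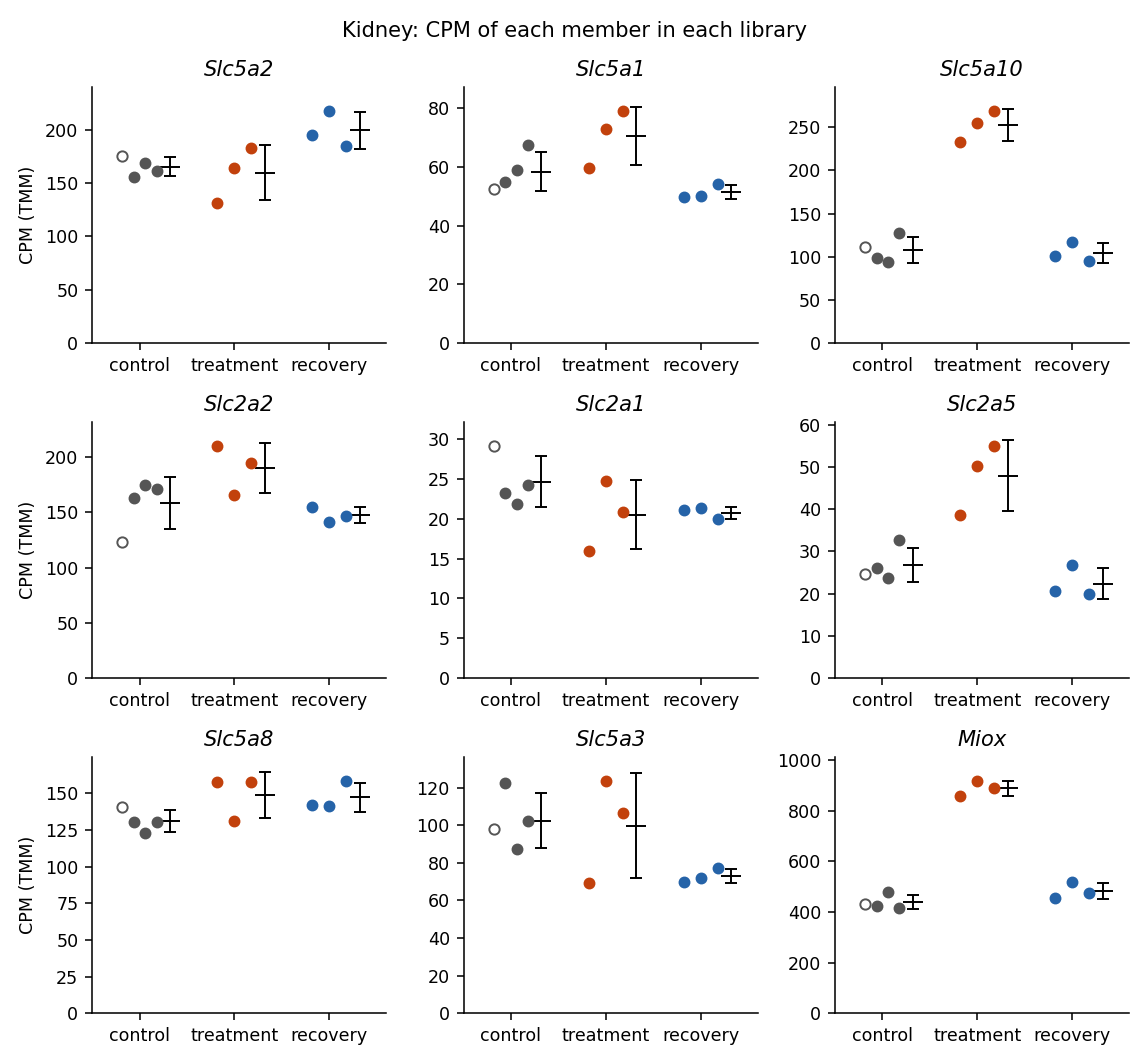
CPM (TMM-scaled, linear axes from 0) of the 9 genes in each of 10 kidney libraries, with control in grey (the open circle is the vehicle control of the recovery time), treatment in orange and recovery in blue, and black bars giving mean ± SD. Slc5a10, Miox and Slc2a5 have all 3 treated libraries above the 4 controls, while the other 6 genes overlap.

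The glucose carriers of the same tubule differed less. Slc5a2 (SGLT2, ENSMUSG00000030781.14), which recovers the bulk of filtered glucose in the early proximal tubule, had 132, 165 and 183 CPM in treated kidneys and between 156 and 176 CPM in controls. The treated libraries spread on both sides of the controls, with a log2 fold change of -0.051 ± 0.093. Slc5a1 (SGLT1, ENSMUSG00000011034.7), which takes up the remaining glucose further down, had 59.8, 72.9 and 79.3 CPM after JQ1 against 52.5 to 67.6 CPM in controls, a log2 fold change of 0.27 ± 0.10 with overlap.

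On the blood side, Slc2a2 (GLUT2, ENSMUSG00000027690.14) had 210, 166 and 194 CPM in treated kidneys and 123 to 174 CPM in controls, where the low value was the 16-week control. Slc2a1 (GLUT1, ENSMUSG00000028645.12) had 16.0, 24.7 and 20.8 CPM after JQ1 against 21.8 to 29.2 CPM. Their log2 fold changes were 0.27 ± 0.11 and -0.25 ± 0.13, and both overlapped with controls. Slc5a8 (SMCT1, ENSMUSG00000020062.8), which recovers lactate and other monocarboxylates at the apical membrane, had 158, 131 and 158 CPM after JQ1 against 123 to 141 CPM, a log2 fold change of 0.18 ± 0.08.

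Slc5a3 (SMIT1, ENSMUSG00000089774.3), the carrier that loads cells with inositol as an osmolyte, varied most among treated kidneys. It had 69.0 CPM in treatment replicate 1, 124 in replicate 2 and 106 in replicate 3, against 87.1 to 122 CPM in controls, with a log2 fold change of -0.034 ± 0.184. Markers of the collecting duct and thick ascending limb varied in the same libraries, with Aqp2, the water channel of the collecting duct, at 66.7, 246 and 131 CPM, and Slc12a1, the salt carrier of the thick ascending limb, at 362, 696 and 504 CPM. Summed over the list, the 5 collecting duct markers spanned 178 to 390 CPM in treated and 211 to 318 CPM in control kidneys, and their part in the values of Slc5a3 was not tested. Exons of Slc5a3 overlap those of Mrps6 on the same strand, with which some reads could be shared. In M21, 1.3% of the 31-base words of Slc5a3-201 also occur in other genes.

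In all, 3 of the 9 genes were called in treated against control kidneys, all as higher, and 3 did not overlap. The genes were chosen on this comparison, so nothing is read from these counts beside the 1.40% and 15.2% of all genes. The same holds for the median log2 fold change of the 9, 0.27, beside -0.007 over all genes. The 5 adipocyte markers summed to 344 CPM in treatment replicate 1, to 18.7 and 92.5 CPM in replicates 2 and 3, and to 25.2 to 92.9 CPM in controls. Without replicate 1 Slc5a10, Miox and Slc2a5 had log2 fold changes of 1.28, 1.05 and 0.97.

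Recovery against control kidneys was not the comparison on which the genes were chosen, although it shares the same controls. None of the 9 was called by edgeR against control, with adjusted p from 0.376 to 0.935, whereas 3 had p below 0.05 before adjustment, and DESeq2 called 0 as well. Over all genes 0.00583% were called, a single gene. Slc5a10 had a log2 fold change of -0.048 ± 0.101, Slc2a5 -0.26 ± 0.15 and Miox 0.14 ± 0.07.

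Recovery libraries did not overlap with the controls for 4 of the 9 genes, beside 10.5% of all genes. Slc5a2 was higher, at 196, 218 and 185 CPM against 156 to 176 CPM (log2 fold change 0.27 ± 0.09, adjusted p = 0.376). Slc5a8 was higher, at 142, 141 and 159 CPM against 123 to 141 CPM (0.17 ± 0.08, adjusted p = 0.531). Slc5a3 was lower, at 70.0, 72.2 and 77.0 CPM against 87.1 to 122 CPM (-0.49 ± 0.19, adjusted p = 0.482), and Slc2a1 was lower, at 21.1, 21.3 and 19.9 CPM (-0.25 ± 0.13, adjusted p = 0.600). The only control of the same age had the highest value of Slc5a2, Slc5a8 and Slc2a1 among controls, so for Slc5a2 and Slc5a8 it stood nearest to the recovery libraries and for Slc2a1 farthest.

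The direct comparison of treated with recovery kidneys uses the treated libraries on which the genes were chosen, so its values and counts are again a description from which nothing is read. The call rule was passed by 4 of the 9, all higher after JQ1, where 7.31% of all genes were called and 2.41% called as higher. The log2 differences were 1.27 ± 0.11 for Slc5a10, 1.1 ± 0.15 for Slc2a5, 0.88 ± 0.08 for Miox and 0.46 ± 0.11 for Slc5a1. Slc5a2 was lower in all 3 treated libraries than in any recovery library, with a log2 difference of -0.32 ± 0.10. Libraries of both groups did not overlap for 6 of the 9 genes, which the choice of genes also bears on, and for 27.2% of all genes.

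**Figure D2:**
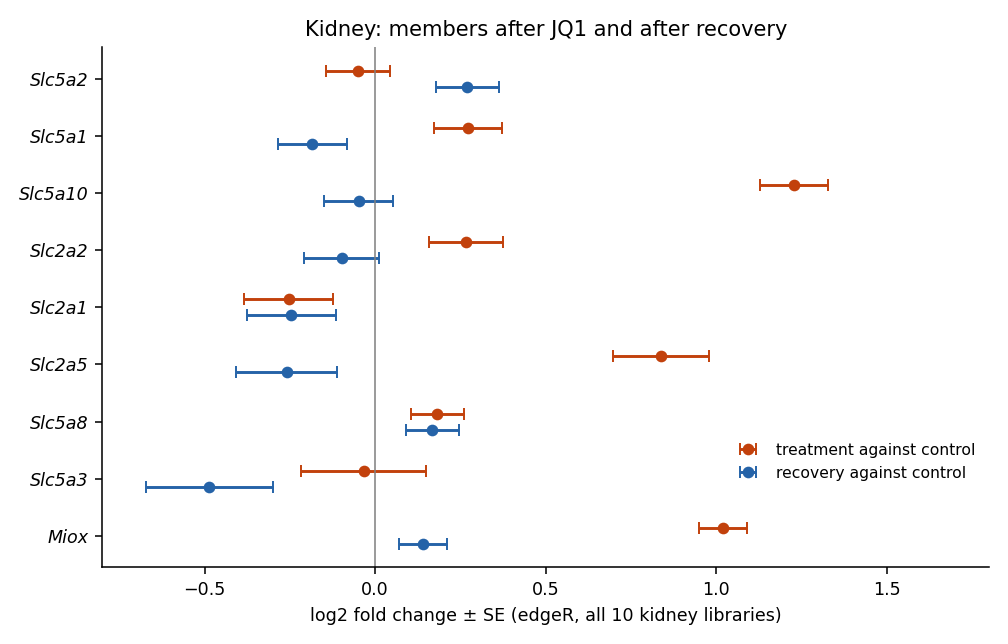
Log2 fold change ± SE from edgeR over all 10 kidney libraries, for treatment (orange, n = 3) and recovery (blue, n = 3) against the 4 controls, by gene. Slc5a10, Miox and Slc2a5 lie at 1.23, 1.02 and 0.84 in treatment and at -0.048, 0.14 and -0.26 in recovery, and both comparisons share the same controls.

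Genes of the same families and pathways outside the list were tested in treated kidneys. These lists and the marker lists below were also chosen with earlier results known, so their p-values are not free of that choice. Over all genes 4.13% were called in this comparison. Of 8 other Slc5 genes 5 were abundant enough to test, and 1 was called. Slc5a6, which takes up biotin and pantothenate, fell from 10.4 ± 0.292 to 7.17 ± 0.408 CPM (log2 fold change -0.54 ± 0.13, edgeR adjusted p = 0.0267). Of 9 other Slc2 genes 7 were tested, and the glucose carrier Slc2a3 (GLUT3) rose from 29.4 ± 1.85 to 38.8 ± 5.77 CPM (0.40 ± 0.11, adjusted p = 0.0390). Slc5a12, another monocarboxylate carrier of the proximal tubule, had a log2 fold change of 0.34 ± 0.18 (adjusted p = 0.387).

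Around Miox, 9 of 10 genes of inositol synthesis and glucuronate use were tested and 1 was called. Dcxr, which reduces xylulose further along the route that glucuronate enters, rose from 72.8 ± 4.52 to 98.2 ± 9.07 CPM (log2 fold change 0.43 ± 0.08, adjusted p = 0.00336). Akr1a1, which acts on glucuronate itself, had a log2 fold change of 0.010 ± 0.066 and Isyna1, which makes inositol, 0.15 ± 0.13. None of 5 osmolyte genes was called, including Nfat5, the factor that drives Slc5a3 under salt stress (-0.045 ± 0.072, adjusted p = 0.818). Their median was -0.045.

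Of 11 partners and regulators 10 were tested and 2 rose. Among them was the sodium pump subunit Atp1b1, from 2660 ± 84.3 to 3447 ± 77.0 CPM (log2 fold change 0.37 ± 0.06, adjusted p = 0.00153). Khk, which phosphorylates fructose, had a log2 fold change of 0.35 ± 0.10 (adjusted p = 0.0631). Hnf4a, a factor that keeps proximal tubule genes on, had -0.046 ± 0.083. In recovery against control no gene of these 5 lists or of the marker lists was called. Txnip, which restrains glucose uptake, stood at 120.1 ± 16.7 CPM in recovery against 184 ± 16.9 CPM in controls (-0.62 ± 0.10, adjusted p = 0.0774).

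Markers of nephron segments moved in the same treated kidneys. Of 6 proximal tubule markers 2 rose, Slc34a1 by 0.46 ± 0.07 and Slc4a4 by 0.40 ± 0.08 (adjusted p = 0.00037 and 0.00856), and the list summed to 6746 to 7105 CPM against 5371 to 5877 CPM. Of 4 markers of its late segment 3 fell, Slc7a13 by 0.67, Cyp7b1 by 1.38 and Slc22a7 by 2.52 on the log2 scale, and Acy3 was at -0.003. The late segment list summed to 1831 to 2240 CPM after JQ1 and 2130 to 2925 CPM in controls. Of 3 thick ascending limb markers 1 fell, Umod (-0.76 ± 0.13), and the list summed to 647 to 1133 CPM against 942 to 1066 CPM in controls. Of 3 distal convoluted tubule markers 1 fell, Pvalb (-1.93 ± 0.20), and the list summed to 379 to 447 CPM against 381 to 455 CPM. In each of these lists 1 gene had a log2 fold change above 0. Kap fell (-0.57 ± 0.14, adjusted p = 0.0414), and 1 of 4 podocyte markers rose. Red cell genes were higher as well, with Hbb-bt, Hba-a2 and Alas2 called among 5. None of the 5 collecting duct, 4 endothelial or 5 adipocyte markers was called. The part of these marker changes in the values of Slc5a10, Miox and Slc2a5 was not tested.

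**Figure D3:**
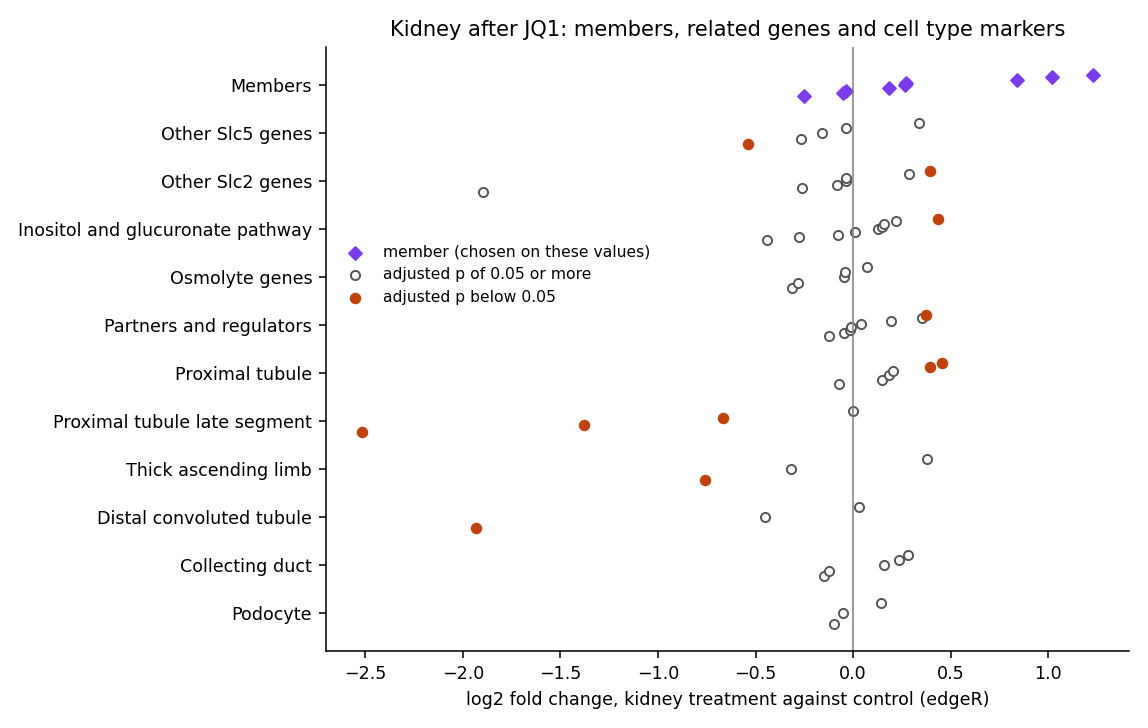
Log2 fold change of treatment against control kidneys from edgeR, 1 symbol per gene, by list, with some tested genes left out. Filled orange circles have an adjusted p below 0.05, open circles do not, and purple diamonds are the 9 genes chosen on these values, which reach 1.23, while the late segment markers reach -2.52.

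Over the 10 kidney libraries Slc5a10 tracked Slc2a5 (Pearson r = 0.953 on log2 CPM) and Miox (r = 0.947), and Slc2a5 tracked Miox (r = 0.853). Slc5a1 tracked Slc2a5 (r = 0.882), whereas Slc5a2 went the other way from Slc2a2 (r = -0.613). These are descriptions across libraries in which the 3 treated ones stand apart. Among all genes with a mean of at least 5 CPM, those closest to Slc5a10 included Atp1b1 (r = 0.974), Ifi30 (0.969), Eci1 (0.961) and H4c8 (0.957). Among those closest to Miox were Aplp2 (0.964), Rps2-ps10 (0.964), Commd10 (0.960) and Hdlbp (0.957). Slc2a5 was closest to Srrm2 (0.961), with Slc5a10 also among its nearest.

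The other members had other neighbours. Slc5a3 was closest to Prox1 (0.975), Abhd6 and Fads6, Slc5a1 to Slc25a13 (0.950), Prodh2 and Cyp4a31, and Slc5a2 to Znhit2 (0.941), Ganab and Hes6. Slc5a8 was closest to Csnk1g3 (0.960), 4833439L19Rik and Dcun1d3, Slc2a1 to Nrbp2 (0.927), Lypla2 and Cryab, and Slc2a2 to Morc3 (0.974), Herc3 and Ddx42.

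In liver only Slc2a2, the glucose carrier of hepatocytes, reached a level like that of kidney, at 22.4 to 42.2 TPM in liver and 32.1 to 50.6 TPM in kidney. In control livers Slc2a2-202 gave a mean of 17.3 TPM of this and Slc2a2-201 13.4 TPM. Slc5a2, Slc5a8, Slc5a10 and Miox were at 0 to 9 reads in each control and treated liver and did not pass the filter on low counts. For Slc5a10 all 3 treated livers had 0 reads, which allows up to 3 reads, or 0.174 to 0.256 CPM in the liver libraries, for counting error only. The remaining 5 genes were tested.

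None of the 5 was called by edgeR in treated against control livers, beside 0.495% of 14559 genes, and 1 had an unadjusted p below 0.05. That gene was Slc2a5, at 1.01, 2.39 and 2.39 CPM (14, 30 and 28 reads) after JQ1 and 6.30, 3.84, 4.14 and 4.23 CPM (83, 53, 69 and 73 reads) in controls. All treated livers were below all controls, as for no other gene of the 5 and beside 12.9% of all genes that did not overlap. Its log2 fold change was -1.26 ± 0.45 (adjusted p = 0.374), and in a fit of only treated and control livers -1.28 (adjusted p = 0.0376). Slc2a1 (-0.38 ± 0.22, adjusted p = 0.640) and Slc2a2 (0.14 ± 0.15, adjusted p = 0.852) overlapped with controls. Of the related lists and markers, Slc22a7, an organic anion carrier, was called in treated livers (-1.95, adjusted p = 0.0145).

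In recovery against control livers none of the 5 was called by edgeR and none was without overlap, beside 0.0343% and 11.6% of all genes, while DESeq2 called 2 and 4 had p below 0.05 before adjustment. The values split by library. Slc5a1 had 0.759, 19.1 and 4.86 CPM in recovery replicates 1, 2 and 3 (controls 0.420 to 1.01 CPM), Slc5a3 7.03, 33.3 and 21.2 CPM (controls 5.04 to 9.72 CPM), and Slc2a5 4.14, 15.4 and 7.69 CPM (controls 3.84 to 6.30 CPM). Replicate 1 lay among the controls for all 3 genes and replicates 2 and 3 above them. Slc2a2 differed in the other direction and did not split in this way, with 166, 156 and 136 CPM against 156 to 238 CPM in controls (log2 fold change -0.39 ± 0.15, adjusted p = 0.206), and its groups overlapped.

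The genes that liver otherwise lacks showed the same split. Miox had 0.878, 628 and 112 TPM in recovery replicates 1, 2 and 3, Slc5a10 0, 27.6 and 3.21 TPM, Slc5a2 0, 15.0 and 4.59 TPM, and Slc5a8 0.025, 5.25 and 1.46 TPM. With replicates 2 and 3 both left out, replicate 1 was the only recovery library. Slc5a1, Slc5a3 and Slc2a5 then had log2 fold changes of -0.068, -0.042 and -0.16. Without replicate 1, 2107 of 15450 genes were called, against 5 with it. In that fit 7 of the 9 genes were called, but Slc5a2, Slc5a8, Slc5a10 and Miox passed the filter on low counts only through replicates 2 and 3, where they were high, so nothing is read from that count.

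Set against the mean TPM of recovery kidneys, replicate 2 held Slc5a10 at 60.3%, Miox at 42.1%, Slc5a1 at 32.0%, Slc5a8 at 24.7% and Slc5a2 at 20.7%. The 17 kidney markers whose level in control liver was under 1% of that in kidney ran from 10.9% to 42.1% in that library, with a median of 27.3%. Kap was at 12.2%, Slc34a1 at 29.2% and Slc12a1 at 38.7%. In replicate 3 the 5 genes lay between 6.08% and 7.54%, and the markers between 5.51% and 16.1%, with a median of 7.57%. Slc5a10 in replicate 2 was thus above every marker, and Miox stood level with the highest (42.14% against 42.08%). In replicate 3 all 5 genes were below the median of the markers. The source of the kidney transcripts in these livers was not tested.

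**Figure D4:**
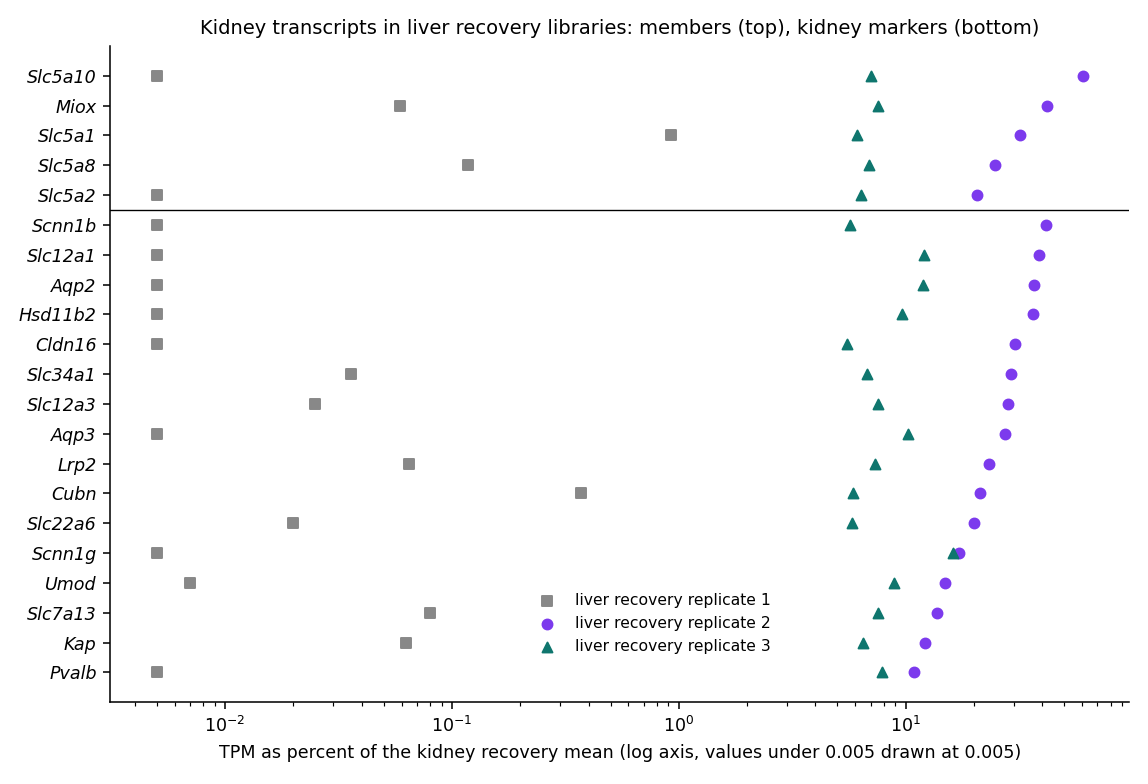
TPM in the 3 liver recovery libraries as a percentage of the mean of the 3 kidney recovery libraries (log axis, values under 0.005 drawn at 0.005), for 5 of the 9 genes above the line and 16 of the 17 kidney markers below it. Replicate 2 (circles) and replicate 3 (triangles) hold every gene shown, with medians over all 17 markers of 27.3% and 7.57%, and replicate 1 (squares) stays below 1%.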

How the data were processed

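Poly(A) RNA of 10 kidney and 10 liver libraries was sequenced single-end. Per the submitters' processing notes and methods, adaptors were removed by fastp 0.20.1, and Salmon 1.10.0 assigned the reads to mouse transcripts. The authors deposited values that are estimated counts and TPM per transcript, of which TPM use an effective length of the transcript length less 250 bases. Here the estimated counts were summed by gene, rounded and tested with edgeR 4.0.16 (quasi-likelihood, TMM, filterByExpr with at least 10 reads, and 15 in total, R 4.3.3), with treatment, recovery and control fitted per organ over all 10 libraries. Genes with a Benjamini-Hochberg adjusted p below 0.05 were called, and the fit was tested on simulated data. CPM carry TMM scaling, and fold changes are log2.

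The study names mm10 together with GENCODE vM30, which is built on another assembly, so no gene coordinates are given, and exon overlaps and upstream stretches come from GENCODE M21 and RefSeq on GRCm38.p6. A supplementary legend gives control numbers and a recovery time that differ from the labels, and the labels were followed. Strandedness is not given in the sources used here.

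The 9 genes and all gene lists were chosen with earlier results of these data known. Named genes were all members, genes of the lists called against control (at most 6 per list and comparison) and, by likeness, the 3 genes with the highest Pearson r on log2 CPM at a mean of at least 5 CPM (5 for Slc5a10 and Miox). List genes named without a call, and genes that overlap members, were chosen after their values were seen. Some genes that the rule names are not reported here. Lists covered other Slc5 and Slc2 genes, inositol and glucuronate genes, osmolyte genes, partners and regulators, and markers of nephron segments, podocytes, endothelium, fat, red cells and hepatocytes. Alternatives were DESeq2 1.42.0, its size factors, limma-voom 3.58.1, no low-count filter, length-scaled counts, TPM, another prior count for likeness, fits of only the groups compared, the control of the same time, a replicate block and each replicate left out. Leaving out liver recovery replicates 2 and 3 together was added after seeing the data. The floor given for genes without reads covers counting error only. SDs are between libraries, and SEs and p-values come from fits that take in the spread between these libraries.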

Additional observations from a re-analysis of the deposited data

Results flagged for a closer look

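Among 14 control groups of 4 libraries with at least 10 reads in some library, 1 had a library set apart from the others. For Slc2a5 in liver, vehicle treatment replicate 1 (6.30 CPM, 83 reads) lay above the other 3 controls (3.84 to 4.23 CPM), and its gap made up 0.84 of the range, above Dixon's critical value for 4 samples. Chance sets apart about 1 in 20 such groups.

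The values of Slc2a5 lay on opposite sides of the controls in the 2 organs. All 3 treated kidneys were above all kidney controls (log2 fold change 0.84) and all 3 treated livers below all liver controls (-1.26), a difference of 2.10 on the log2 scale. The difference between organs was not tested. The kidney value is one on which the gene was chosen. The liver value was not called by edgeR with all groups fitted (adjusted p = 0.374), but was called when the recovery livers were left out of the fit. It rests on 14 to 30 reads in each treated library, and is set against controls that include the library described above.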

How the results depend on the processing

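Members called in treated against control kidneys numbered 3, 5 without the low-count filter and 3 to 4 with each replicate left out. In recovery against control the count was 0 throughout (0 to 0). In treated against recovery kidneys it was 4, 7 with DESeq2 and 3 to 5 with a replicate left out. In treated livers it was 0, 0 to 0 with a replicate left out and 1 (Slc2a5) when the third group was left out of the fit. In recovery livers it was 0, 2 with DESeq2 and 0 to 7 with a replicate left out, the 7 being without recovery replicate 1, where 4 untested members entered only through replicates 2 and 3. On TPM the ratios of treated to control kidneys were 2.12 for Slc5a10 (2.34 on CPM) and 1.88 for Miox (2.03 on CPM). The causes were not tested.

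Some small fold changes reversed. With a replicate left out, treated against control kidneys gave -0.157 to 0.069 for Slc5a2 and -0.221 to 0.17 for Slc5a3, and treated against recovery kidneys -0.03 to 0.099 for Slc5a8 and -0.17 to 0.137 for Slc2a1. In recovery kidneys Slc5a10 became 0.016 without recovery replicate 3 and 0.051 without vehicle treatment replicate 3 (range with a replicate left out -0.135 to 0.051), and Slc2a2 became 0.27 against the control of the same time. In treated livers Slc5a1 became -0.055 with voom, -0.17 with the replicate block and -0.27 without treatment replicate 3 (range -0.27 to 0.776), and Slc5a3 became 0.042 with voom, 0.06 without treatment replicate 3, and 0.14 and 0.03 without vehicle treatment replicates 1 and 2. In recovery livers Slc5a1, Slc5a3 and Slc2a5 became -0.068, -0.042 and -0.16 without recovery replicates 2 and 3, and Slc2a1 became 0.076 against the control of the same time, 0.025 without recovery replicate 1, and 0.035 and 0.003 without vehicle treatment replicates 1 and 3 (range -0.085 to 0.035).

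Counts over all genes moved by more than 1.5 times. Treated against control kidneys gave 709 calls, 1084 without the filter, 443 on length-scaled counts, 459 when fitted without the recovery libraries and 411 without treatment replicate 3. Recovery kidneys gave 1, 109 with DESeq2, 182 without the filter, 13 without the treated libraries, and 240 without vehicle recovery replicate 1, the only control of the same age. Treated against recovery kidneys gave 1255 and 675 to 771 without a recovery replicate. Treated livers gave 72, 291 with DESeq2, 368 when fitted without the recovery libraries, 128 without the filter, 33 with voom, 36 on length-scaled counts, 41 with the replicate block and 15 to 35 with a replicate left out. Recovery livers gave 5, 651 with DESeq2, 226 without the filter, 1 to 2 with voom, length-scaled counts, the replicate block or fewer groups or controls, 2107 without recovery replicate 1, and 0 to 2 with any other replicate left out.

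Replicate numbers showed no sign of pairing the libraries: same-numbered kidney libraries had r from -0.132 to 0.102, and differently numbered ones from -0.116 to 0.131. With 3 libraries in each group this check cannot exclude pairing, and kidney was not compared with liver. With the replicate block 3, 0, 4, 0 and 0 members were called in the 5 comparisons, as without it, while calls over all genes went from 709 to 554 in treated kidneys. Low read counts limit what can be said of Slc5a2, Slc5a8, Slc5a10 and Miox in liver.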
